A study of Mus musculus with 16 samples.

Results

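Transcripts of 10 enzymes of serine synthesis and folate-bound one-carbon metabolism were followed in mIMCD3 cells treated with doxycycline (DOX). The enzymes came from a fixed list of gene symbols that was chosen with earlier results of these data known. Both deposited tables held them under the same Ensembl identifier. They were 10 of the 54393 genes in the count table and comprised 6 cytosolic enzymes (*Phgdh*, *Psat1*, *Psph*, *Shmt1*, *Mthfd1* and *Aldh1l1*) and 4 mitochondrial enzymes (*Shmt2*, *Mthfd2*, *Mthfd1l* and *Aldh1l2*). mIMCD3 is an epithelial line established from inner medullary collecting ducts of an SV40-transgenic mouse. The cells were wild type, were grown for 10 days on permeable filters in RenaLife medium with 5% FBS, and then received 2 µg/mL DOX or its vehicle DMSO for 3 or 6 days. Each of the 4 groups had 4 libraries of polyadenylated RNA, named here by group and replicate number, and all groups shared the medium, its growth factors and its antibiotics. All samples come from 1 cell line, so the p-values measure the spread between these cultures or preparations, and the labels do not say how far apart they were.

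Cells make serine from the glycolytic intermediate phosphoglycerate in a short cytosolic pathway. Serine hydroxymethyltransferases then split serine into glycine and a one-carbon unit carried by tetrahydrofolate, and folate enzymes pass that unit on to purine, thymidylate and methionine synthesis. The folate steps exist in parallel forms in mitochondria and cytosol, and in many proliferating cells the mitochondrial arm oxidizes the unit to formate, which is exported and reused in the cytosol. The tetracycline DOX binds bacterial ribosomes and also acts on the related ribosomes of mitochondria.

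Total estimated counts per library lay between 16933343 and 23960860. Transcripts of the mitochondrial genome took 1.54% to 1.64% of counts in the DMSO libraries of 3 days, 1.68% to 1.83% in DOX at 3 days, 1.29% to 1.78% in DMSO at 6 days and 2.20% to 2.51% in DOX at 6 days, and the part of this in the results was not tested. The 5 epithelial markers all passed the filter on low counts. Of them, 2 fell at 3 days (*Cdh1* and *Krt8*) and 3 at 6 days (*Krt8*, *Krt18* and *Cldn4*). Over all tested genes, 7.22% were called lower at 3 days and 11.6% at 6 days. They summed to 1914 to 2330 TPM over the DMSO libraries and 1369 to 1605 TPM over the DOX libraries. Only *Scnn1a*, *Hsd11b2* and *Gata3* of 10 collecting duct markers passed the filter, and *Aqp2*, which defines the principal cell, did not. The summed TPM of the 10 collecting duct markers was 6.93 to 10.2 over the DMSO libraries and 3.12 to 5.08 over the DOX libraries. None of 5 fibroblast markers, 2 of 4 endothelial markers and 1 of 4 immune markers passed the filter. The 4 immune markers summed to 17.3 to 24.6 TPM in DMSO and 7.86 to 12.6 TPM in DOX, and of the 4 only *Cd68* passed the filter. All these markers were read from cultures of 1 epithelial line. In such RNA, fewer cells with a marker and less of its RNA per cell cannot be told apart.

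Sequence before the transcription start is shown for the 4 enzymes with the highest transcript levels in DMSO. Of these, *Phgdh*, *Shmt2* and *Mthfd2* rose with DOX at both times, and the next step after *Phgdh*, *Psat1*, did not pass the test. *Psph*, lower in level, also rose at both times and is not printed. The windows come from RefSeq for GRCm38.p6, where 9 of the 10 enzymes had an entry. Only bases outside annotated exons are printed, 5′ to 3′ on the gene's strand, which is the minus strand for all 4. Capitals mark CCAAT or its reverse complement, the sequence bound by NF-Y, and in *Shmt2* the palindromic core bound by NRF1, GCGCA followed by its reverse complement. The positions are chr3:98339991-98340219 for *Phgdh*, chr19:15925060-15925309 for *Psat1*, chr10:127522445-127522694 for *Shmt2* and chr6:83317607-83317854 for *Mthfd2*. The *Psat1* and *Mthfd2* windows lie within the annotated span of their own gene, before the RefSeq start used here.
Phgdh: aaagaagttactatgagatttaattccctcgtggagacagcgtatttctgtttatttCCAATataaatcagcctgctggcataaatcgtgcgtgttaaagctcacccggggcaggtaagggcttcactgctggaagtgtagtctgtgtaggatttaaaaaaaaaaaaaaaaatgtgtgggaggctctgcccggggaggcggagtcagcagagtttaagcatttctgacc
Psat1: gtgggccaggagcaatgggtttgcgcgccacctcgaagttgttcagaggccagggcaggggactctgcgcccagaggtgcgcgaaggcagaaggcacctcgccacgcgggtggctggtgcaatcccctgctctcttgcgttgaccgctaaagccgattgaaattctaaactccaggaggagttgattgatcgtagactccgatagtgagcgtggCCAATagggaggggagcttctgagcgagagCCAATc
Shmt2: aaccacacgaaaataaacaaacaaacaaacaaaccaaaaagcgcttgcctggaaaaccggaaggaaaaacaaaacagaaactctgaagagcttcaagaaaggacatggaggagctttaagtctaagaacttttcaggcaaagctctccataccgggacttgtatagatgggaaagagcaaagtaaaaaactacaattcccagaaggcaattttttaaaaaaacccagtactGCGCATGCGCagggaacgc
Mthfd2: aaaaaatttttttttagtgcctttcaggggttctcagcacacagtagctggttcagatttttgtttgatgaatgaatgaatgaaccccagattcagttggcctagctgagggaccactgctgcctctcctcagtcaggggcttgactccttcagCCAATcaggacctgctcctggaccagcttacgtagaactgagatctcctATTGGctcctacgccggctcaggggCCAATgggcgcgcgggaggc

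Both strands of each 300-base window, 250 bases before and 50 after the start, were searched for 4 motifs that were chosen after the windows had been seen. CCAAT was in the windows of 7 of the 9 enzymes (*Phgdh*, *Psat1*, *Psph*, *Shmt1*, *Mthfd1*, *Aldh1l1* and *Mthfd2*) and in 37.4% of all 32851 windows. Among the printed sequences it occurred once in *Phgdh*, 2 times in *Psat1* and 3 times in *Mthfd2*. The NRF1 core was in 1 of the 9, *Shmt2*, and in 0.971% of all windows. The C/EBP-ATF composite element TGATGNAA was in none of the 9 and in 3.97% of all windows, and the E-box CACGTG in none of the 9 and in 7.15%. No motif searched overlaps another. A match is a description of the letters and was not tested against the response to DOX.

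In cells given only DMSO, *Phgdh*, *Psat1*, *Shmt2* and *Mthfd2* had the most transcripts per length of the 10 enzymes. *Phgdh*, the dehydrogenase that opens serine synthesis, had the highest level at 327 ± 36.8 TPM (SD, n = 8) and ranked 366 among all genes of the TPM table. It was followed by the aminotransferase *Psat1* at 157 ± 13.1 TPM, *Shmt2* at 120.4 ± 14.9 TPM and *Mthfd2* at 100.02 ± 7.57 TPM. The phosphatase *Psph*, the last step to serine, was far lower, at 36.3 ± 4.62 TPM. *Mthfd1* stood at 31.0 ± 3.68 TPM, *Mthfd1l* at 29.6 ± 1.32 TPM and *Shmt1* at 20.7 ± 2.61 TPM. *Aldh1l1* and *Aldh1l2*, which oxidize formyl-tetrahydrofolate in cytosol and mitochondria, had 0.523 ± 0.354 and 0.462 ± 0.315 TPM. They rest on 6 to 51 and 15 to 44 estimated counts per library, against 459 to 18390 for the other 8 enzymes.

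Some neighbours in this order were not separated. The ranges of *Psat1* and *Shmt2*, of *Shmt2* and *Mthfd2* and of *Psph* and *Mthfd1* overlapped across the 8 DMSO libraries, although the first of each pair was the higher one in all 8. *Mthfd1* exceeded *Mthfd1l* in 5 of 8 libraries and *Aldh1l1* exceeded *Aldh1l2* in 4 of 8, so neither pair had an order. Below *Phgdh*, the order of *Psat1*, *Shmt2* and *Mthfd2* changed under DOX, in all libraries only at 6 days. *Shmt2* was below *Psat1* in all 8 DMSO libraries, above it in 2 of 4 DOX libraries at 3 days and above it in 4 of 4 at 6 days. *Mthfd2* was above *Psat1* in TPM in none of the DMSO libraries or the DOX libraries of 3 days, and in 4 of 4 DOX libraries of 6 days.

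**Figure D1:**
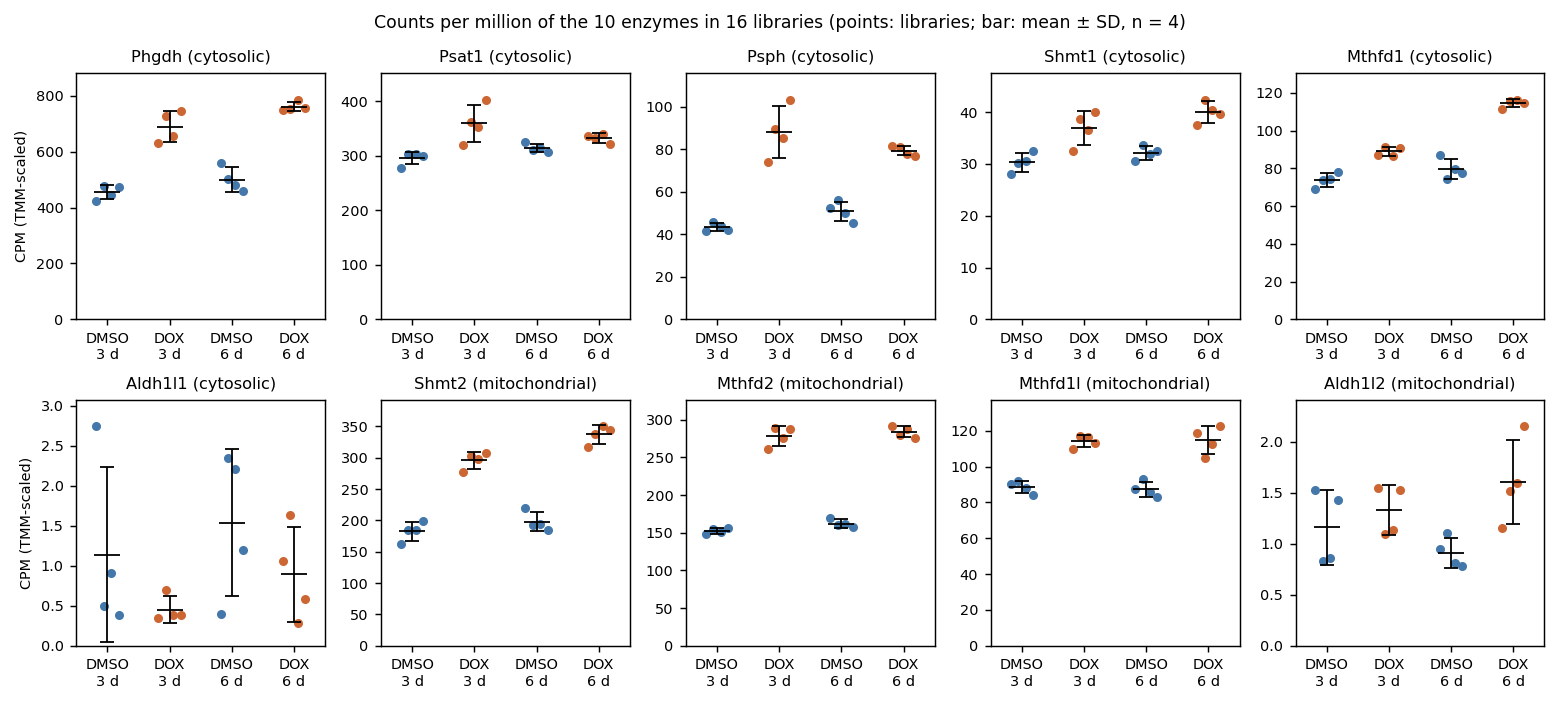
Read counts of each enzyme, scaled to library size as CPM with TMM factors, in the 16 libraries. Each panel has its own axis from 0. Points are libraries in replicate order, and bars give the mean ± SD of 4. The DOX points of *Phgdh*, *Psph*, *Shmt2* and *Mthfd2* lie above all DMSO points of the same time, *Psat1* separates at 3 days and overlaps at 6 days, and *Aldh1l1* overlaps at both.

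The first question was whether DOX changed transcripts of these enzymes after 3 days. Of the 10, 4 rose (*Phgdh*, *Psph*, *Shmt2* and *Mthfd2*), 0 fell and 6 did not pass the test, which asks for a change of more than 1.2-fold. Over all 13234 tested genes 5.30% were called higher and 7.22% lower. The median log2 fold change was 0.32 over the 10 enzymes, 0.28 over the cytosolic and 0.53 over the mitochondrial ones, against 0.003 over all tested genes. In CPM, the DOX libraries of 8 enzymes lay entirely above the DMSO libraries, as they did for 18.9% of all tested genes.

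The question was then put to the cells treated for 6 days. Here 7 of the 10 rose (*Phgdh*, *Psph*, *Mthfd1*, *Shmt2*, *Mthfd2*, *Mthfd1l* and *Aldh1l2*), 0 fell and 3 did not pass the test, beside 10.0% of all tested genes called higher and 11.6% called lower. The 7 comprised 3 of the 6 cytosolic and 4 of the 4 mitochondrial enzymes. Of the latter, *Mthfd1l* was called in 9 of 13 alternative settings and *Aldh1l2* in 4 of 12. Median log2 fold changes were 0.57 for the 10, 0.42 for the cytosolic and 0.79 for the mitochondrial ones, and -0.00064 over all tested genes. At both times the cytosolic median includes *Aldh1l1*, on 6 to 51 counts per library, and the mitochondrial one *Aldh1l2*, on 15 to 44. Separation of the DOX libraries above the DMSO libraries was seen for 8 of the 10 enzymes and for 22.1% of all tested genes. On deposited TPM, tested by limma, the median of all genes shifted by -0.15 on the log2 scale at 3 days and -0.05 at 6 days, and calls fell to 2 of 10 and 4 of 10. Over all genes limma then called 85 higher and 616 lower at 3 days and 376 and 931 at 6 days, against 702 and 956 and 1326 and 1530 in edgeR. With that shift centred out, an alternative added after seeing the data, they were 4 and 5.

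**Figure D2:**
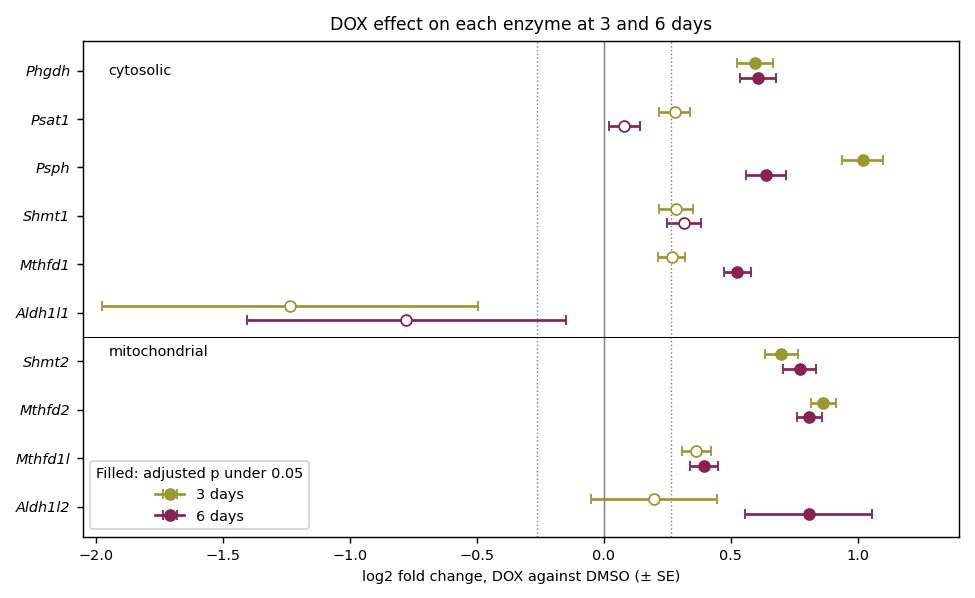
Log2 fold change of each enzyme between DOX and DMSO at 3 and 6 days, with SE. Filled points passed an adjusted p of 0.05, the dotted lines mark a fold of 1.2, and the horizontal line divides the 6 cytosolic from the 4 mitochondrial enzymes. *Aldh1l1* and *Aldh1l2* have the widest errors, and the other 8 enzymes lie right of 0 at both times.

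Serine synthesis rose at its first and last steps, and its middle step did not pass the test. *Phgdh* (ENSMUSG00000053398, chr3:98313170-98339990, GRCm38) had 424, 478, 446 and 475 CPM in the DMSO libraries of 3 days and 629, 728, 654 and 745 CPM in the DOX libraries. At 6 days the DMSO libraries had 559, 504, 479 and 459 CPM and the DOX libraries 749, 754, 786 and 756 CPM. The treated libraries were above the controls without overlap at both times. The log2 fold change was 0.60 ± 0.07 (SE, adjusted p = 0.000286, edgeR) at 3 days and 0.61 ± 0.07 (adjusted p = 9.31e-05) at 6 days, and the call at 3 days was lost on uncentred log2(TPM + 1) (adjusted p = 0.316). The genome also holds 20 annotated genes with a stretch nearly identical to *Phgdh*, from 183 to 1621 bases long. The closest, *Gm7901*, is 98.7% identical over 1597 bases and had 4.02 to 19.6 counts.

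*Psat1* (ENSMUSG00000024640, chr19:15904678-15947337) transfers an amino group from glutamate to the product of *Phgdh*. Its CPM at 3 days were 278, 303, 303 and 299.6 in DMSO and 320.1, 363, 352 and 403 in DOX. At 6 days they were 325, 311, 315 and 307 in DMSO and 337, 333, 340.5 and 321 in DOX, and there the lowest treated library was below the highest control. Changes were 0.28 ± 0.06 in log2 at 3 days (adjusted p = 0.537) and 0.08 ± 0.06 at 6 days (adjusted p = 1.00). Without the fold threshold *Psat1* would be called at 3 days (adjusted p = 0.000825) and not at 6 days.

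*Psph* (ENSMUSG00000029446, chr5:129765558-129787449) removes the phosphate to release serine. Its DMSO libraries of 3 days had 41.7, 45.9, 43.7 and 42.1 CPM and its DOX libraries 73.8, 89.7, 85.2 and 103 CPM. After 6 days the values were 52.5, 56.0, 49.8 and 45.3 CPM in DMSO and 81.4, 80.9, 77.7 and 77.0 CPM in DOX. The groups did not overlap at either time, and the 3-day DOX libraries were the most spread. The log2 fold change was 1.02 ± 0.08 at 3 days (adjusted p = 1.05e-07), the largest rise of the 10, and 0.64 ± 0.08 at 6 days (adjusted p = 0.000128). The annotated *Psph* transcript shares 452 bases with *Cct6a* on the opposite strand, which had 9629 to 19090 counts. The library kit kept strand, but whether the quantification used it is not given in the sources used here, so the *Psph* values may include reads of *Cct6a*.

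Of the mitochondrial steps that follow serine, *Shmt2* and *Mthfd2* rose at both times. *Shmt2* (ENSMUSG00000025403, chr10:127517123-127522444) makes glycine and methylene-tetrahydrofolate from serine inside mitochondria. It had 163, 185, 184 and 198 CPM in DMSO and 277, 303, 297 and 308 CPM in DOX at 3 days. At 6 days it had 219.5, 192, 194 and 185 CPM in DMSO and 317, 338, 351 and 344 CPM in DOX. Every treated library was above every control of its time, by 0.70 ± 0.06 in log2 at 3 days (adjusted p = 6.17e-06) and 0.77 ± 0.06 at 6 days (adjusted p = 2.83e-07). The 3-day call was lost on uncentred log2(TPM + 1) (adjusted p = 0.134).

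*Mthfd2* (ENSMUSG00000005667, chr6:83305691-83325908) oxidizes the one-carbon unit to formyl-tetrahydrofolate in mitochondria. Its CPM were 148, 155, 151 and 156 in DMSO and 261, 289, 275 and 288 in DOX at 3 days. The 6-day values were 170.2, 159.7, 161 and 157 in DMSO and 292, 280.2, 288 and 276 in DOX. The spread within a group was small beside the gap between groups. Log2 fold changes of 0.86 ± 0.05 at 3 days (adjusted p = 1.87e-09) and 0.81 ± 0.05 at 6 days (adjusted p = 1.98e-09) were called under all 13 alternative settings at each time and with any 1 library left out.

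*Mthfd1l* (ENSMUSG00000040675, chr10:3973118-4167081) releases formate from formyl-tetrahydrofolate, the step before export. The 3-day libraries had 90.2, 92.1, 87.9 and 84.0 CPM in DMSO and 109.7, 117, 117 and 113 CPM in DOX. At 6 days the CPM were 87.7, 92.8, 85.7 and 82.7 in DMSO and 119, 105, 112 and 123 in DOX. The groups did not overlap at either time. The change was 0.36 ± 0.06 in log2 at 3 days, which did not pass (adjusted p = 0.0761), and 0.39 ± 0.06 at 6 days, which did (adjusted p = 0.0185). The 3-day value passed without DOX replicate 1 of that time (adjusted p = 0.0367) and after a length and GC correction (0.00723), and the 6-day value failed without DMSO replicate 4 (0.0583) or DOX replicate 4 (0.0704) of 6 days, under DESeq2 (0.133), and with limma on log2(TPM + 1) (0.905), log2(TPM + 0.1) (0.710) and centred log2(TPM + 1) (0.199).

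The cytosolic counterparts had smaller log2 changes than *Shmt2* and *Mthfd2*, and this difference between genes was not tested. *Mthfd1* (ENSMUSG00000021048, chr12:76255298-76319803) carries out the same 3 folate conversions in the cytosol in 1 protein. Its CPM at 3 days were 69.0, 73.7, 74.6 and 78.2 in DMSO and 87.3, 91.2, 86.5 and 90.9 in DOX. At 6 days they were 87.0, 74.4, 79.7 and 77.3 in DMSO and 112, 116, 116 and 115 in DOX. DOX libraries were above DMSO libraries at each time, with a log2 change of 0.27 ± 0.05 at 3 days (adjusted p = 0.624) and 0.53 ± 0.05 at 6 days (adjusted p = 8.74e-05). The call at 6 days was lost on uncentred log2(TPM + 1) (adjusted p = 0.232).

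*Shmt1* (ENSMUSG00000020534, chr11:60788104-60811718), the cytosolic form of *Shmt2*, had 28.0, 30.1, 30.6 and 32.4 CPM in DMSO and 32.6, 38.6, 36.6 and 40.1 CPM in DOX at 3 days. It had 30.6, 33.6, 31.8 and 32.6 CPM in DMSO and 37.5, 42.4, 40.4 and 39.7 CPM in DOX at 6 days. Treated and control libraries were apart, at 3 days only narrowly. Log2 changes of 0.28 ± 0.07 (adjusted p = 0.517) and 0.32 ± 0.07 (adjusted p = 0.257) did not exceed the 1.2-fold threshold by the test, and without that threshold both were called (adjusted p = 0.00186 and 0.000495). *Shmt1* shares 184 bases with *Smcr8* on the opposite strand, which had 1372 to 2248 counts against 459 to 1035 for *Shmt1*, so its values may include reads of *Smcr8*.

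The 2 formyl-tetrahydrofolate dehydrogenases were near the limit of detection. *Aldh1l2* (ENSMUSG00000020256, chr10:83487450-83534140) had 1.53, 0.833, 0.857 and 1.43 CPM in DMSO and 1.55, 1.09, 1.14 and 1.53 CPM in DOX at 3 days. At 6 days it had 0.950, 1.102, 0.811 and 0.784 CPM in DMSO and 1.15, 1.52, 1.60 and 2.16 CPM in DOX. The groups overlapped at 3 days and were just apart at 6 days, with log2 changes of 0.20 ± 0.25 (adjusted p = 0.985) and 0.81 ± 0.25 (adjusted p = 0.0438). The call at 6 days held in 4 of 12 alternative settings and was lost without any 1 of DMSO replicates 1, 3 and 4 and DOX replicates 2, 3 and 4 of 6 days (adjusted p up to 0.157). *Aldh1l2* shares 1056 bases with *D10Wsu102e* on the opposite strand, which had 1394 to 2001 counts, so its 15 to 44 counts are uncertain in origin.

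*Aldh1l1* (ENSMUSG00000030088, chr6:90486427-90600203) had 2.75, 0.500, 0.914 and 0.390 CPM in DMSO and 0.350, 0.696, 0.379 and 0.382 CPM in DOX at 3 days. Its 6-day values were 0.391, 2.34, 2.22 and 1.202 CPM in DMSO and 1.05, 1.64, 0.282 and 0.588 CPM in DOX. Single libraries ranged widely in both treatments and the groups overlapped. The log2 changes of -1.23 ± 0.74 (adjusted p = 0.427) and -0.78 ± 0.63 (adjusted p = 0.592) were not detectable as differences at this depth.

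The DOX effect differed between 3 and 6 days for 2 of the 10 enzymes, where the difference of effects, 6 days minus 3 days, was tested without a fold threshold and 17.0% of all tested genes were called, a share near that of the enzymes. The effect on *Psph* was smaller at 6 days, by -0.38 ± 0.11 in log2 (adjusted p = 0.0252). That on *Mthfd1* was larger, by 0.26 ± 0.08 (adjusted p = 0.0248). None of the mitochondrial enzymes was called. The difference was -0.05 ± 0.07 for *Mthfd2*, a 95% interval of -0.19 to 0.08, and 0.07 ± 0.09 for *Shmt2*, with -0.11 to 0.25. For *Mthfd1l* it was 0.03 ± 0.08, and for the thinly counted *Aldh1l2* 0.61 ± 0.35 (adjusted p = 0.247). *Phgdh* had 0.01 ± 0.10, with -0.19 to 0.21, and *Psat1* -0.20 ± 0.09 (adjusted p = 0.112). Both calls are near the limit: *Psph* was lost without any 1 of 6 libraries (adjusted p up to 0.0669) and *Mthfd1* without any 1 of 4 (up to 0.0665), and leaving out DOX replicate 1 of 3 days brought *Psat1* past it (adjusted p = 0.0149). The libraries whose removal ended a call were DMSO replicate 4 of 3 days, DMSO replicate 2 and DOX replicate 3 of 6 days for both genes, DOX replicates 2 and 4 of 3 days and DOX replicate 4 of 6 days for *Psph*, and DOX replicate 3 of 3 days for *Mthfd1*.

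Time in DMSO alone was the control for this comparison. By edgeR, none of the 10 enzymes and 0 of 13234 genes (0.00%) were called between DMSO at 6 days and at 3 days, with 172 genes and none of the enzymes at an unadjusted p under 0.05. DESeq2 and limma also called 0. Without the fold threshold 62 genes were called, none of them among the 10. The enzymes' log2 changes ranged from -0.33 for *Aldh1l2* to 0.53 for *Aldh1l1*. Libraries were separated for *Psat1* and *Mthfd2*, both higher at 6 days. Over all tested genes, 6.91% were separated with the 6-day libraries higher and 12.3% in either direction.

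Ratios of TPM within a library compared the mitochondrial with the cytosolic form of the same step. *Shmt2* over *Shmt1* was 4.71, 6.57, 5.43 and 6.63 in DMSO and 8.10, 7.76, 8.50 and 7.51 in DOX at 3 days. At 6 days it was 6.80, 6.61, 5.10 and 5.20 in DMSO and 7.51, 7.94, 8.99 and 9.23 in DOX. All DOX libraries had a higher ratio than the DMSO libraries of their time, and the group means were 1.37-fold and 1.42-fold higher. The bases that *Shmt1* shares with *Smcr8* bear on this ratio too, and their part was not tested.

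*Mthfd2* over *Mthfd1* was 3.27, 3.48, 3.06 and 3.25 in DMSO and 4.87, 5.16, 4.96 and 5.00 in DOX at 3 days. The 6-day ratios were 2.87, 3.52, 3.20 and 3.31 in DMSO and 4.13, 3.83, 3.99 and 3.85 in DOX. The DOX libraries were again above the controls, with means 1.53-fold and 1.23-fold higher, and the DOX libraries of 6 days were all below those of 3 days. *Mthfd1l* over *Mthfd1* overlapped between treatments, at 0.935 to 1.06 in DMSO and 1.04 to 1.11 in DOX at 3 days and 0.789 to 1.11 and 0.757 to 0.915 at 6 days. *Aldh1l2* over *Aldh1l1* ran from 0.178 to 6.21 over the 16 libraries and had no order. At 3 days its DOX mean was 0.680 times the DMSO mean on TPM and 1.90 times on CPM per kb of the longest transcript.

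**Figure D3:**
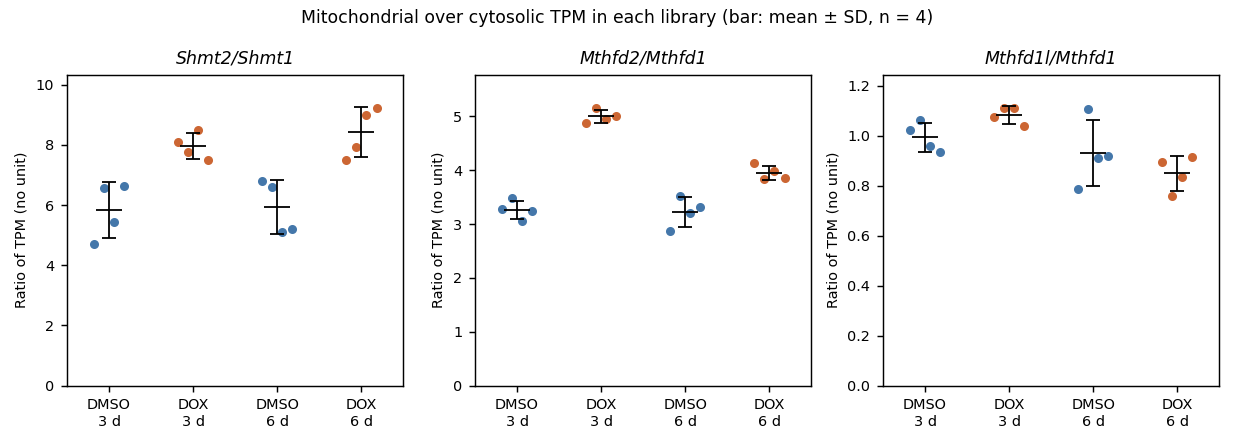
Ratio of the TPM of a mitochondrial enzyme to that of its cytosolic counterpart in each of the 16 libraries, with the mean ± SD of 4. The ratios of *Shmt2* to *Shmt1* and of *Mthfd2* to *Mthfd1* are higher in every DOX library than in the DMSO libraries of that time, and *Mthfd1l* to *Mthfd1* overlaps.

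Summed over the 4 mitochondrial enzymes, TPM were 239.6 ± 28.0 (SD, n = 4) in DMSO and 345 ± 14.7 in DOX at 3 days, and 261 ± 13.0 and 424 ± 27.0 at 6 days. The 6 cytosolic enzymes summed to 538 ± 57.4 and 678 ± 34.1 TPM at 3 days, and to 606 ± 33.2 and 805 ± 42.7 TPM at 6 days, of which *Phgdh*, *Psat1* and *Psph* made up the greater part. In both sums the treated libraries were above the controls.

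Other genes of the pathway were read from lists drawn up with earlier results of these data known. Their counts stand beside the 5.30% of all tested genes called higher and 7.22% called lower at 3 days, and the 10.0% and 11.6% at 6 days. Of 11 transporters of serine, glycine and folate, 4 rose at 3 days and 6 at 6 days, and 0 fell. The largest changes at 6 days were in the neutral amino acid exchangers and carriers *Slc1a5* (1.39 ± 0.08 in log2), *Slc6a9*, a glycine transporter (1.39 ± 0.09), and *Slc1a4*, which carries alanine and serine (1.15 ± 0.09). The mitochondrial serine carrier *Sfxn1* (0.02 ± 0.06) and the mitochondrial folate carrier *Slc25a32* (0.16 ± 0.10) were not called at 6 days. The list's median log2 fold change was 0.26 at 3 days and 0.46 at 6 days.

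Among 10 tested enzymes of the folate cycle outside the 10 described, 4 rose at 3 days. At 6 days 4 rose and 2 fell, beside 10.0% of all tested genes called higher and 11.6% called lower. *Mtr*, which uses the methyl group of folate to make methionine, rose by 0.94 ± 0.09 in log2 at 6 days, and *Fpgs*, which adds glutamates to folates, by 0.62 ± 0.07. *Tyms*, which makes thymidylate, was among those that fell, with a change of -0.61 ± 0.07 (adjusted p = 8.82e-05). *Mthfd2l*, the second mitochondrial dehydrogenase, was at 0.05 ± 0.09 and not called. On centred log2(TPM + 1) limma called 2 of the 11 transporters and none of the folate enzymes at 3 days.

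Of the 4 tested genes of glycine cleavage and the choline side, *Amt* (0.60 ± 0.13) and *Sardh* (0.54 ± 0.07) rose at 6 days and 0 were called at 3 days. None of 5 methionine cycle genes was called at either time. Of 6 enzymes of purine synthesis, including those that use formyl-tetrahydrofolate, *Atic* rose at 6 days (0.44 ± 0.06), 1 of 6 where 10.0% of all tested genes were called higher, and none was called at 3 days. The calls of *Amt*, *Sardh* and *Atic* were lost with limma on TPM, centred or not, as was that of *Fpgs* on uncentred TPM.

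The integrated stress response, whose transcription factor *Atf4* is known to act on serine synthesis and mitochondrial folate genes, had 8 of 10 listed genes higher at 3 days and 9 of 10 at 6 days, with 0 lower. At 6 days *Ppp1r15a*, which directs a phosphatase to eIF2α, changed by 1.43 ± 0.05, the pseudokinase *Trib3* by 1.27 ± 0.08 and the hormone *Fgf21* by 0.83 ± 0.17. *Atf4* itself rose at 3 days (0.60 ± 0.06) and was at 0.35 ± 0.06 at 6 days (adjusted p = 0.106). On centred log2(TPM + 1), 6 of the stress response genes were called higher at 3 days and 7 at 6 days. With the length and GC correction 7 and 9 were, and the 3-day call of *Fgf21* was lost without any 1 of 7 libraries. Of 10 proliferation genes 3 fell at 3 days and 8 at 6 days, among them *Rrm2*, which makes deoxynucleotides, *Mki67* and *Top2a*, by 1.61, 1.26 and 0.78 in log2 at 6 days. The part of these genes in the enzymes' changes was not tested.

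**Figure D4:**
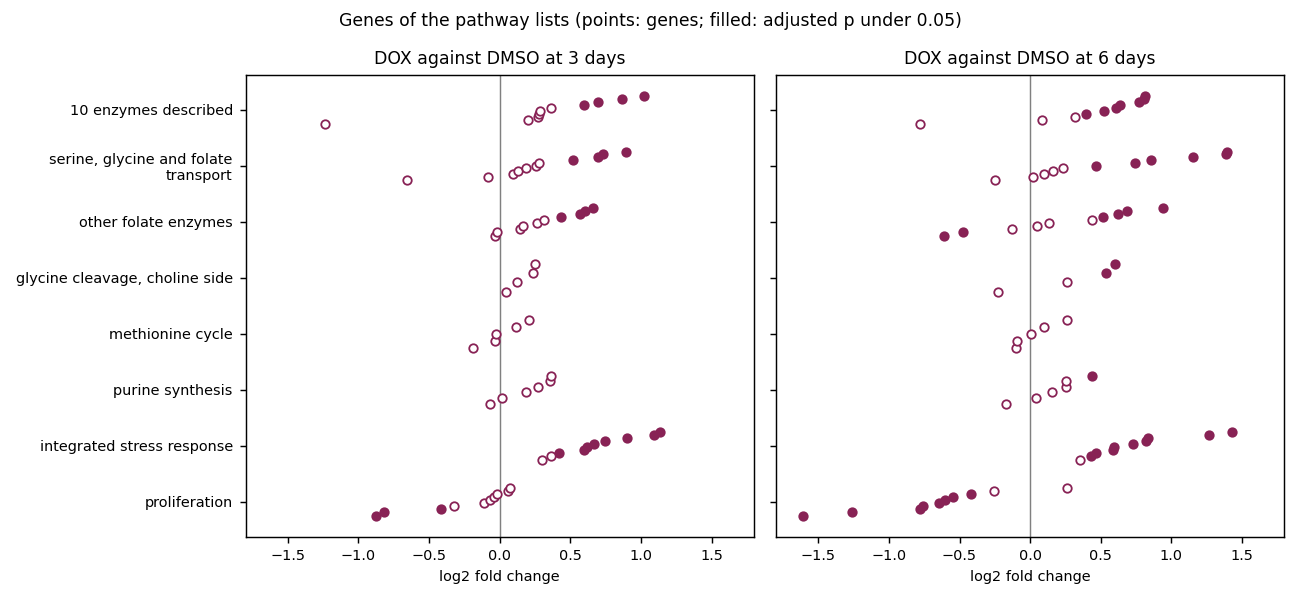
Log2 fold change of each tested gene of the pathway lists between DOX and DMSO at 3 days (left) and 6 days (right), with the 10 enzymes in the top row. Filled points passed an adjusted p of 0.05. At 6 days the transporters and stress response genes that passed are all right of 0, the other folate enzymes lie on both sides, and the proliferation genes that passed are all left of 0.

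The genes whose pattern over the 16 libraries was most like that of *Mthfd2* were taken from all 13233 other tested genes by the correlation of log2 CPM. They were *Angptl6* (r = 0.995), *Cyb5r1* (0.992), *Acot2* (0.991), *Pabpc4* (0.990) and *Cmss1* (0.988). *Angptl6* is a secreted angiopoietin-like protein, *Acot2* a mitochondrial acyl-CoA thioesterase and *Pabpc4* a cytoplasmic poly(A)-binding protein. All 16 points share the division into DOX and DMSO libraries. When each value was taken as its deviation from the group mean, these correlations were 0.735, 0.856, 0.423, 0.778 and 0.628. Among the enzymes, *Shmt2* ranked 31 (r = 0.975), *Phgdh* 41 (0.971), *Psph* 73 (0.964) and *Mthfd1l* 182 (0.946). *Shmt1* (r = 0.877), *Mthfd1* (0.840) and *Psat1* (0.779) were less alike, and *Aldh1l2* (0.570) and *Aldh1l1* (-0.42) least. After removal of the group means *Phgdh* (0.875) and *Psat1* (0.811) were the enzymes closest to *Mthfd2*, and *Mthfd1l* was at 0.149.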

How the data were processed

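RNA of 16 mIMCD3 libraries in 4 groups of 4 was measured, and groups were read from the labels. The authors aligned reads to GRCm38.p6 with STAR 2.6.0c and quantified transcripts with salmon. The deposited tables hold, per gene, an estimated count that is not normalized and a TPM value, in which transcript length is divided out. Estimated counts were rounded, and the 13234 genes reaching 1 CPM in 4 or more libraries were tested. All 16 libraries were fitted with edgeR 4.0.16 in R 4.3.3 (TMM, robust quasi-likelihood, 1 mean per group). DOX was compared with DMSO at each time by glmTreat with a fold threshold of 1.2, as was DMSO at 6 days with DMSO at 3 days, and the difference of effects by glmQLFTest. Tests were two-sided, with Benjamini-Hochberg adjustment over all tested genes and a limit of 0.05. CPM are TMM-scaled. SE was approximated from the fold change and the F statistic, and 95% intervals are log2 fold change ± 1.96 SE. Levels between genes were compared in TPM.

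The enzymes, the lists and the rule for named genes were chosen with earlier results of these data known. The rule took all 10 enzymes, *Mthfd2l*, *Slc25a32*, *Sfxn1* and *Tyms*, from each other pathway list up to 3 genes called at 6 days with the largest change, and the 5 genes most like *Mthfd2*. Of the genes it took, 2 are not reported here. *Atf4*, *Cd68* and the epithelial and collecting duct markers named were singled out after their values were seen. Gene positions and overlaps came from GENCODE release M21 for GRCm38, nearly identical stretches from BLASTN of the longest transcripts, and promoter windows from RefSeq. The alternatives were RLE normalization, DESeq2 1.42.0, limma 3.58.1 on log2(TPM + 1) and log2(TPM + 0.1), other thresholds and filters, the replicate number as a block, fitting without robust estimation, only the 8 libraries compared, a length and GC correction by splines, and each library left out in turn. Limma on centred log2(TPM + 1) was added after seeing the data. On simulated counts with 197 changed genes among 13073, edgeR recovered 91.9% at 3 days and 90.9% at 6 days, with 0 and 4 false calls. The planted changes exceeded those of every enzyme except *Psph* and *Aldh1l1* at 3 days. These shares therefore do not measure how often smaller changes are found. Total counts of 16933343 to 23960860 limit precision for genes such as *Aldh1l1*, where 3 counts, the most that a count of 0 allows, equal 0.125 to 0.177 CPM.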

Additional observations from a re-analysis of the deposited data

Results flagged for a closer look

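In 40 groups of 4 libraries (10 enzymes in 4 groups), 1 library stood far from the other 3 in 2 groups, which is as many as chance gives at about 1 in 20. *Psat1* had 278 CPM in DMSO replicate 1 of 3 days, against 299.6 to 303 CPM in the other 3. *Aldh1l1* had 0.696 CPM in DOX replicate 2 of 3 days, against 0.350 to 0.382 CPM in the others, and rests there on 7 to 14 counts.

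The DOX effect differed between the times, by a test of the difference itself, for *Psph*, where it was smaller at 6 days by -0.38 in log2, and for *Mthfd1*, where it was larger by 0.26. These are 2 of 10 enzymes, near the 17.0% of all tested genes called for this difference, and leaving out single libraries gave 0 to 3 calls.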

How the results depend on the processing

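The number of enzymes called was 4 at 3 days and 7 at 6 days and fell to 2 and 4 with limma on log2(TPM + 1) and on log2(TPM + 0.1), and without the fold threshold 8 were called at 3 days. With DESeq2, 4 enzymes were called at 3 days and 5 at 6 days. The 2 calls of the difference between times became 0 on both TPM scales and with a fold threshold of 1.2, and 1 with the length and GC correction together with the replicate block. Leaving out 1 library gave 4 to 5 calls at 3 days, 5 to 7 at 6 days, 0 to 3 for the difference and 0 between the DMSO groups. Over all genes these fits called 1366 to 2297 at 3 days and 1370 to 3788 for the difference. Both highest totals came without DOX replicate 1 of 3 days. Deviations of equally numbered libraries correlated between -0.43 and 0.18. Unequally numbered libraries were not compared, so whether replicate numbers pair the samples was not settled. With the replicate block 4, 6, 2 and 0 enzymes were called, in the order above, and 1570, 2767 and 1768 genes in all for the DOX contrasts and their difference, against 1658, 2856 and 2252 without it. DESeq2 called 1019 genes at 3 days, limma on log2(TPM + 1) 701 and 1307 at the 2 times, and 659 for the difference. Per kb of the longest transcript, *Shmt2* over *Shmt1* moved to 7.51, 10.0, 7.71 and 10.5 in DMSO and DOX at 3 days and at 6 days, *Mthfd2* over *Mthfd1* to 4.86 in DOX at 3 days, and *Mthfd1l* over *Mthfd1* to 1.06 and 1.13 in DMSO and DOX at 3 days. On centred TPM, 2 transporters and 0 folate enzymes were called at 3 days, and 0 genes of glycine cleavage and 0 of purine synthesis at 6 days. With the length and GC correction 1 purine gene was called at 3 days. The median r of the 5 genes most like *Mthfd2* was 0.735 on deviations from group means. The causes were not tested.

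Signs turned only for small or thinly counted changes, none of them called. *Aldh1l2* at 3 days was -0.28, -0.71 and -0.12 on log2(TPM + 1), log2(TPM + 0.1) and centred TPM. The difference between times was 0.086 on both uncentred TPM scales and 0.037 under the length and GC correction (0.036 with the block) for *Mthfd2*, -0.054 under that correction, with or without the block, for *Mthfd1l*, and -0.0012 on centred TPM for *Aldh1l1*. At 6 days *Mthfd2l* was -0.23, -0.24 and -0.18 on the 3 TPM scales and *Sfxn1* -0.043 and -0.045 on the uncentred ones. With 1 library left out, the difference ran from -0.032 to 0.067 for *Phgdh* and for *Shmt1* from -0.024 to 0.073, from -0.42 to 0.76 for *Aldh1l1* and from -0.0038 to 0.071 for *Mthfd1l*. The values of *Mthfd2l* and *Sfxn1* at 6 days then ran from -0.0035 to 0.10 and from -0.025 to 0.046. Depth limits *Aldh1l1* and *Aldh1l2*, which had at most 51 counts in a library.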
